A study of Mus musculus with 18 samples.

Results

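C/D box small nucleolar RNAs (snoRNAs) are short non-coding RNAs of the nucleolus that guide the methylation of ribosomal RNA at the ribose 2′-OH group. They carry a C box near the 5′ end and a D box near the 3′ end, and with the proteins fibrillarin (Fbl), Nop56, Nop58 and Snu13 they form the C/D snoRNP, in which Fbl is the methyltransferase and the antisense stretch upstream of a D box selects the target base. In mammals most are cut from introns of host genes, many of which encode ribosomal or translation proteins, and they carry no poly(A) tail. The members described here are the genes whose symbol begins with Snord among the RefSeq entries of the long RNA expression tables. The RNAome table listed 69 of them among 13719 genes, in 88 rows because near-identical copies have rows of their own. The mRNA table listed 26 of them among 14620 genes, and 43 of the 69 were not listed there.

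The cells were HPRT-deficient C57BL/6 mouse embryonic stem (ES) cells at passage 19 to 22, grown on feeder cells and then on gelatin. Cisplatin, a platinum drug that crosslinks DNA, was given at 2.5 µM, and the control cells received the DMSO vehicle. Both groups therefore share the HPRT deficiency, the strain and the culture history, and no label gives how long the drug was on the cells. Each of 6 RNA samples, the cisplatin samples 8.3.3, 8.4.3 and 8.5.3 and the control samples 8.4.16, 8.5.16 and 8.6.16, went into an RNAome library (rRNA-depleted, fragmented total RNA with small RNA adapters), an mRNA library made with a TruSeq mRNA kit and a small RNA library, giving 18 libraries. The labels do not tell whether replicates are separate cultures, and the p-values below measure only how far these samples spread, which may be technical.

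RNAome libraries held 43404675 to 94373096 expression-table counts and mRNA libraries 20365963 to 31604098. All 8 ES cell markers on the list used were measured well enough to be tested in both assays. In mRNA sequencing 6 of the 8 were lower with cisplatin by edgeR, where 19.3% of all tested genes were, with a list median of -0.34, and in RNAome sequencing 0 were called (median -0.44). The part of this in the results below was not tested. In mRNA sequencing the 6 of 8 listed feeder fibroblast markers summed to 35.2 to 69.4 CPM (counts per 1e6 counts, scaled by TMM) in cisplatin libraries and 39.1 to 59.2 in control libraries, and in RNAome sequencing 4 were listed and 0 were tested. In bulk RNA, fewer cells of a type and less RNA per cell cannot be told apart.

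The sequences of 7 members on which the results turn come from the GENCODE vM1 entries on NCBIM37 (the same assembly as mm9). Snord2 and Snord95 were among the members with the highest levels, Snord88a and Snord88c are a near-identical pair of which Snord88c had the smallest adjusted p with cisplatin in RNAome sequencing, Snord47 had the smallest adjusted p in mRNA sequencing, and the RefSeq rows of Snord12 and Snord49a held far fewer counts than an adjoining region. Capitals mark the D box letters CTGA found in the last 20 bases and, where present, the C box letters TGATGA found in the first 20 bases of the RNA strand.
Snord2: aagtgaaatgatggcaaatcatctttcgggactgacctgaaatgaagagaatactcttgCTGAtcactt
Snord95: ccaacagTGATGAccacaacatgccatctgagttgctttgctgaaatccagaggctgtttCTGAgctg
Snord88a: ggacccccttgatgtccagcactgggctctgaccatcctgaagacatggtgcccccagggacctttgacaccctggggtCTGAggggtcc
Snord88c: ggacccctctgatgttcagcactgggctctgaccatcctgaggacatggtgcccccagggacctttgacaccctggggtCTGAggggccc
Snord47: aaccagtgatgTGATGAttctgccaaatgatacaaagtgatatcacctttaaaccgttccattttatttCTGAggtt
Snord12: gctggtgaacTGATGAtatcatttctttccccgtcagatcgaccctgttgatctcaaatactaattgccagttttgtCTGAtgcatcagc
Snord49a: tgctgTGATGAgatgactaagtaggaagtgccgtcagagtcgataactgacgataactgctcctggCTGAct

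On NCBIM37 these lie at chr16:23109026-23109094 (Snord2, + strand, in Eif4a2, a translation initiation helicase), chr11:48616641-48616708 (Snord95, + strand, in Gnb2l1, the ribosomal scaffold protein Rack1), chr7:51505505-51505594 and chr7:51505222-51505311 (Snord88a and Snord88c, + strand, introns of 2410002F23Rik), chr1:162968213-162968289 (Snord47, + strand, in the non-coding host Gas5), chr2:166890776-166890865 (Snord12, + strand, in 1500012F01Rik) and chr11:62416952-62417023 (Snord49a, + strand, an intron of 2410006H16Rik). Of the 69 members, 57 could be placed on NCBIM37 by symbol or family name and 53 of these lay within a host gene, 33 in an intron and 20 overlapping an exon of at least 1 host transcript. There were 37 different hosts, and 45 of the 53 members had a host that GENCODE vM1 types as protein-coding. Later annotation of these hosts was not checked. Rpl13a, a protein of the large ribosomal subunit, held 4 members. Both boxes in the exact letters searched were found in 33 of the 57 placed members, the C box in 34 and the D box in 56. By contrast, 0 of 34 H/ACA snoRNA entries (symbols beginning with Snora) and 0 of 57 windows of the same lengths 500 bases upstream held both. A miss says only that these letters are not in the window, as for the C box in Snord2. By RefSeq the members were 45 to 221 bases long, with a median of 68.

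To compare levels between genes, CPM values were divided by the RefSeq length in kb. In RNAome control libraries the mean level ran from 0 to 4249880 CPM per kb, with a median of 1116 over the 69 members. It was above 100000 for 8 members, above 10000 for 24 and below 100 for 14. Among the RefSeq rows the highest was Snord43, whose human host is RPL3, with 3041581, 4183090 and 3637599 counts under cisplatin (8.3.3, 8.4.3, 8.5.3) and 940058, 3176514 and 1269103 counts in the controls (8.4.16, 8.5.16, 8.6.16), the order of samples kept throughout. A RefSeq entry without a symbol held nearly the same counts in every library (3041800 in cisplatin 8.3.3), so the Snord43 value is uncertain as that of a single gene.

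Snord43 alone held 40.1% of the members' RNAome counts, the first 3 (Snord43, Snord55 and Snord2) 73.2% and the first 10 90.9%. Snord55 stood at 1893460 ± 815148 CPM per kb in cisplatin libraries and 1384580 ± 356103 in control libraries, and Snord2 at 845877 ± 369145 in cisplatin libraries and 677812 ± 215625 in control libraries (SD, n = 3 each, as for all means below). Snord83b, which lies in Rpl3, followed at 620068 ± 276320 in cisplatin and 402773 ± 107215 in control libraries, and Snord95 at 324269 ± 151894 in cisplatin and 197212 ± 89976 in control libraries. These 5 held the most counts in each of the 6 RNAome libraries, at 79.9% to 84.8% of all member counts. Next came Snord45c (in Rabggtb, a prenyltransferase subunit), Snord4a (in Rpl23a) and Snord19 (in Gnl3, the nucleolar protein nucleostemin), whose control means of 116537 ± 39589, 115783 ± 42496 and 102777 ± 40940 CPM per kb differed by less than their SDs.

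At the low end, Snord71 had 2, 1 and 4 counts in the cisplatin libraries and 0, 2 and 3 in the control libraries. Snord116l1 and Snord116l2, whose symbols mark them as members of the Snord116 family from the imprinted Prader-Willi region, each had 4, 2 and 2 counts in the cisplatin libraries and 0, 0 and 0 in the control libraries, where a count of 0 allows up to 3 counts. The 10 copies of each had the same counts. These 3 were below the count filter and were not tested.

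**Figure D1:**
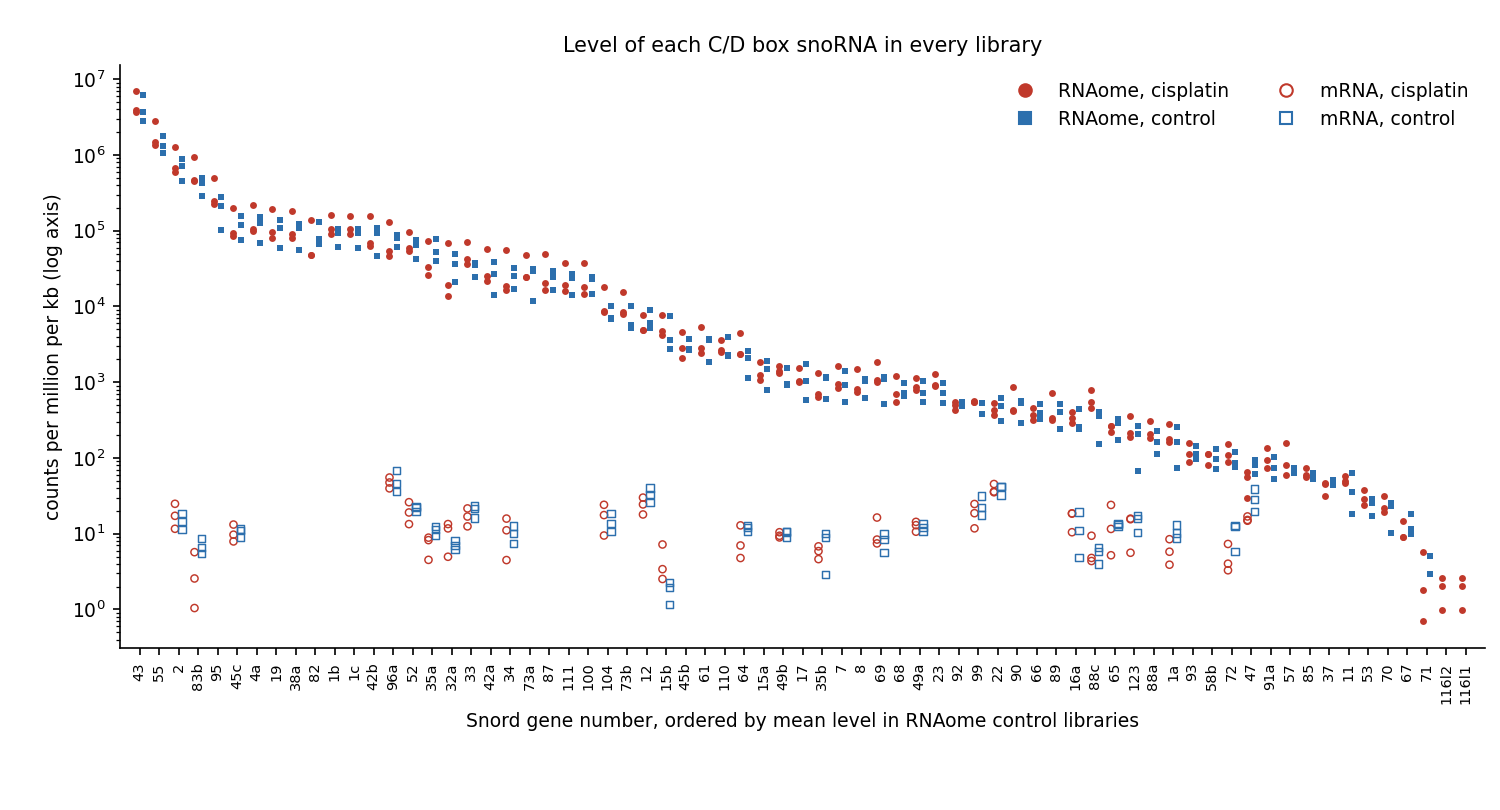
Level of each of the 69 members in every RNAome library (filled) and of the 26 listed in mRNA sequencing (open), in CPM per kb of RefSeq length on a log axis, cisplatin in red circles and control in blue squares. Libraries with a count of 0 are not drawn. RNAome control means of RefSeq rows reach 4249880 for Snord43, while mRNA control means run from 1.79 to 50.0.

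Members of 1 host differed in RNAome level. Both Gnl3 members lie on the − strand, and in control libraries Snord19 stood at 102777 ± 40940 CPM per kb while Snord69 stood at 923 ± 356. The order was the other way round in both small RNA tables, where the control means were 5549 for Snord19 and 20703 for Snord69 in small RNA sequencing, and 1554 and 6300 in the RNAome small RNA table. In Rpl13a the 4 members were within a narrower range, with control means of 24945 ± 7631 (Snord34), 32548 ± 7100 (Snord33), 35688 ± 14571 (Snord32a) and 56238 ± 19398 CPM per kb (Snord35a). In 1810032O08Rik, Snord1a stood at 165 ± 92.1 CPM per kb and Snord1b at 86760 ± 23332. Snord1b and Snord1c, 97.4% identical in sequence, had 139565 and 139509 counts in cisplatin 8.3.3 in the expression table but 46253 and 46714 in the abundance table, and they are uncertain as single genes.

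The RNAome counts summed over all members made up 11.0%, 10.9% and 11.0% of the expression-table counts in the cisplatin libraries, against 5.46%, 10.2% and 7.21% in the control libraries. The cisplatin libraries all lay above the control libraries, and the control libraries differed more among themselves. The difference was 3.39 percentage points (11.0% ± 0.0758 with cisplatin, 7.61% ± 2.37 in controls), with a two-sided exact permutation p = 0.10, the smallest that 3 against 3 samples allow. Divided by the TMM-scaled counts of the tested genes, the summed counts gave ratios that are not shares of a whole. They were 45.9%, 45.7% and 89.7% in cisplatin libraries and 47.0%, 65.4% and 33.5% in control libraries (exact permutation p = 0.70). These ratios overlapped, but they carry the TMM factors. The factors were 1.17, 1.17 and 0.626 with cisplatin and 1.06, 0.786 and 1.40 in controls. The overlap therefore does not show that unscaled shares overlap. In the abundance table the shares were 17.1% ± 0.188 with cisplatin and 13.2% ± 2.78 in controls (exact permutation p = 0.10). A share also depends on the other rows. The rows ranked 2 to 5 by RNAome counts, all regions, took more in each control than in each cisplatin library. For chr16:11141865-11145272 it was 3.80%, 3.81% and 3.84% with cisplatin and 8.38%, 4.93% and 6.09% in controls. The rows ranked 2 to 5 lie on different chromosomes but held nearly the same counts in each library. In control 8.4.16 these were 3795651, 3733208, 3603909 and 3525760, so they are uncertain as separate rows, and all of them count in the total. The row ranked 1 was lower in all 3 controls. Their part was not tested. In mRNA libraries the members made up 0.00134% ± 0.000117 with cisplatin and 0.00138% ± 7.17e-05 in controls (exact permutation p = 0.60).

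**Figure D2:**
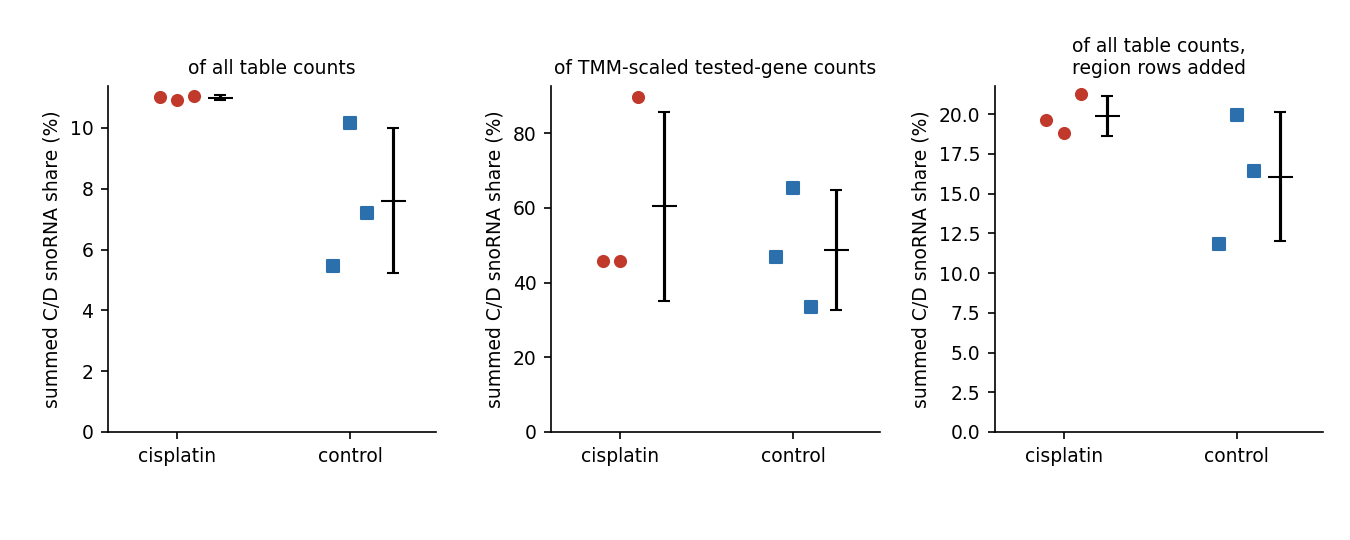
Summed share of the members in each RNAome library, in percent, for cisplatin (red circles) and control (blue squares), with the mean and SD of 3 libraries in black. The left panel divides by all expression-table counts (10.9% to 11.0% with cisplatin, 5.46% to 10.2% in controls). The middle panel divides by TMM-scaled counts of tested genes, which gives ratios that carry the TMM factors, and there the groups overlap. The right panel repeats the left with overlapping region rows added.

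With cisplatin, 0 of the 66 members tested in RNAome sequencing passed an adjusted p of 0.05 by edgeR's quasi-likelihood test, where 2.04% of all tested genes did (0.984% higher and 1.05% lower). DESeq2 also called 0. Of the 66, 3 had an unadjusted p under 0.05 by edgeR and 7 of 69 by DESeq2. The libraries of the groups did not overlap for 2 members (3.03%, both higher), against 19.2% of all tested genes (10% higher and 9.23% lower). The median log2 fold change was 0.26 with 51 of 66 above 0, beside a median of -0.00 with 49.5% above 0 over all tested genes and a median of -0.09 over 32 tested H/ACA snoRNAs. With library totals in place of TMM the members' median was 0.06 and that of all genes -0.12. The median moved with single libraries. Cisplatin 8.5.3 (TMM factor 0.626) was the highest library for 50 of the 66 members and control 8.6.16 (1.40) the lowest for 43. Without cisplatin 8.5.3 the median was -0.11, without control 8.6.16 -0.00 and without control 8.5.16 (0.786) 0.49.

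The smallest adjusted p was that of Snord88c, encoded in an intron of 2410002F23Rik. It had 39.0, 45.8 and 67.0 CPM in the cisplatin libraries, against 30.2, 34.2 and 13.0 CPM in the control libraries. The groups did not overlap, and all 3 cisplatin libraries were above the control libraries. The log2 fold change of 0.97 ± 0.27 (SE) did not pass (edgeR adjusted p = 0.0716). The call came with no count filter (adjusted p = 0.0146), with the abundance table (0.0368), with the code prefix as a block (0.0495), without cisplatin 8.3.3 (0.0467) and without control 8.5.16 (0.0316), while the alternatives ranged from 0.0146 to 1.00. Its neighbour Snord88a, 94.4% identical, had a log2 fold change of 0.45 ± 0.23 (edgeR adjusted p = 0.400), and reads that fit both cannot be told apart.

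Snord99, in the non-coding host Snhg12, was the other member without overlap, at 31.8, 30.5 and 30.5 CPM with cisplatin against 21.3, 29.8 and 29.8 CPM in controls. The lowest cisplatin library lay at 30.5 CPM and the highest control at 29.8 CPM, and the log2 fold change was 0.19 ± 0.16 (edgeR adjusted p = 0.695). These values are those of its RefSeq row, which held far fewer counts than an adjoining region (below). The other members with an unadjusted p under 0.05 were Snord64, an imprinted member, at 0.65 ± 0.27 (edgeR adjusted p = 0.279) and Snord47 at -0.63 ± 0.27 (0.291). Snord22, which lies in Snhg1 and is known from Xenopus as a factor of pre-rRNA processing, stood at -0.08 ± 0.22 (0.928). Snord43, the most abundant member, stood at 0.19 ± 0.72 (0.950), and the SE of the 5 most abundant members was 0.48 to 0.72, above the median SE of 0.29 over the members. The values were 0.45 for Snord55 (edgeR adjusted p = 0.842), 0.32 for Snord2 (0.871), 0.62 for Snord83b (0.677) and 0.72 for Snord95 (0.567). Snord95 had 290556, 343018 and 371011 counts with cisplatin and 74942, 203645 and 64658 in controls, and after scaling the groups overlapped. Snord45c stood at 0.10 ± 0.41, Snord4a at 0.30 ± 0.42, Snord19 at 0.27 ± 0.41, Snord96a (in Gnb2l1) at 0.01 ± 0.40 and Snord12 at -0.20 ± 0.25, none of them called.

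In mRNA sequencing 11 of the 26 listed members passed the count filter and 0 of 11 were called by edgeR, where 37.8% of all tested genes were (18.5% higher and 19.3% lower). DESeq2 called 0 of 26. At an unadjusted p under 0.05 there was 1 by edgeR and 0 by DESeq2. The counts were low, with 1 to 75 per member and library, and the median SE was 0.32 against 0.10 over all tested genes. The median log2 fold change was -0.11 with 3 of 11 above 0.

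Snord47, whose host Gas5 is a growth-arrest transcript, had 12, 15 and 10 counts in the cisplatin mRNA libraries and 23, 18 and 22 in the control libraries. It was the 1 tested member without overlap (9.09%, against 49% of all tested genes, 25.1% higher and 23.9% lower), and all 3 cisplatin libraries were lower. Its log2 fold change was -0.82 ± 0.32 and the edgeR adjusted p 0.0560. It passed with no count filter (0.0492), without control 8.5.16 (0.0201) and with the overlapping regions added (-0.51, 0.0407), and otherwise the adjusted p reached 0.210. Snord96a, the highest per kb, had 38, 58 and 37 counts with cisplatin against 48, 39 and 42 in controls (log2 fold change -0.02 ± 0.24). Snord22 had 71, 62 and 45 counts with cisplatin against 37, 75 and 64 in controls (-0.02 ± 0.18), and Snord12 had 20, 27 and 12 against 24, 24 and 26 (-0.38 ± 0.28). All 3 overlapped between the groups. Snord47 overlaps an exon of a Gas5 transcript, and Snord96a, Snord22 and Snord12 each overlap an exon of a host transcript. The region rows beside Snord47 (described below) held 70 and 143 counts over the mRNA libraries, where its own row held 100. Whether the mRNA counts of these rows come from the snoRNA or from host transcripts was not tested.

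A difference of the cisplatin effect between the assays was not called for any of the 26 members tested (0 by edgeR, where 0% of 12919 genes were called, and 0 at an unadjusted p under 0.05; DESeq2 called 0 and had 1 at an unadjusted p under 0.05). The difference of log2 fold changes, RNAome minus mRNA, ran from -0.99 (Snord15b) to 1.62 (Snord83b), and for Snord88c it was 0.84 ± 0.99. Each of these named members was below the count filter in the mRNA libraries, as were 15 of the 26. Those 15 entered the fit only through RNAome libraries, where they are high. Their differences rest on few mRNA counts and cannot show whether the effects differ.

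In the edgeR fit of 12 libraries 26 of 26 members were higher in RNAome than in mRNA libraries, where 32.4% of all tested genes were higher and 34.4% lower (66.8% in all). Of the 26, 15 were below the count filter in the mRNA libraries and entered this fit only through RNAome libraries, where they are high, so their calls are no support. The 11 that passed the filter in the mRNA libraries had a median log2 difference of 11.46, between 5.22 (Snord47) and 19.14 (Snord2). Over the 26 the median was 11.13, the smallest 5.22 ± 0.21 (Snord47) and the largest 20.26 ± 0.40 (Snord83b, below the mRNA filter). In counts, Snord83b had 599057, 808646 and 790545 in the cisplatin RNAome libraries and 1, 6 and 2 in the cisplatin mRNA libraries. With raw library totals in place of TMM the median of all genes shifted to -2.32, and that of the members was 8.79, with all 26 still higher. All these values are of RefSeq rows. With the overlapping region rows described below added, the median of the 26 was 13.81 and that of all genes -0.06.

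The long RNA tables also have rows with no RefSeq entry, given as genomic regions of very different lengths, some of which adjoin a snoRNA entry. RefSeq entries of 47 of the 57 placed members were shorter than their GENCODE entries, 31 of them by at least 10 bases. In RNAome sequencing 43 of the 57 placed members had a region row that overlaps the GENCODE entry, and for 21 it held more counts than the RefSeq row, for 19 over 10 times and for 16 over 100 times as many. The region beside Snord49a, chr11:62416785-62416961, shares its last 10 bases with the snoRNA. Before scaling, it had 2226043, 2300175 and 3364452 counts with cisplatin and 833068, 1819210 and 999542 in controls. As a share of library totals the groups overlapped, at 3.13%, 2.44% and 3.79% with cisplatin and 1.84%, 2.65% and 2.30% in controls. The Snord49a row itself had 925, 1096 and 766 counts with cisplatin and 235, 680 and 315 in controls.

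For Snord12 the region chr2:166890718-166890792, with 17 bases of the snoRNA, summed to 17413299 counts over 6 libraries, against 30164 in the RefSeq row. For Snord47 it was 858395 against 287, and for Snord71, 46378 against 12. For Snord99 it was 832288 against 2273. Before scaling, that region had 201867, 239992 and 198854 counts with cisplatin and 33507, 96923 and 61145 in controls. The excess went with strand and side. On the + strand, 20 of 22 rows at lower coordinates held more than the RefSeq row (median ratio 237), against 1 of 12 at higher coordinates. On the − strand it was 0 of 16 at lower and 1 of 16 at higher coordinates. In the RefSeq rows the control level had a median of 214 CPM per kb for the 22 + strand members with a region at lower coordinates and 46767 for the 8 without one. With the regions added the medians were 47319 and 46767, and Snord12 stood at 4532390 CPM per kb and Snord49a at 2342920. The divisor was still the RefSeq length alone (66 bases for Snord12, 62 for Snord49a), without the length of the regions. These values are therefore higher than a level over the joined length. With this divisor Snord12 was above the 4249880 of Snord43, which could not be placed, and their order rests on it. A region row covers more than the snoRNA, and how its counts lie along it cannot be read from these files. The cause of the split was not tested.

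**Figure D3:**
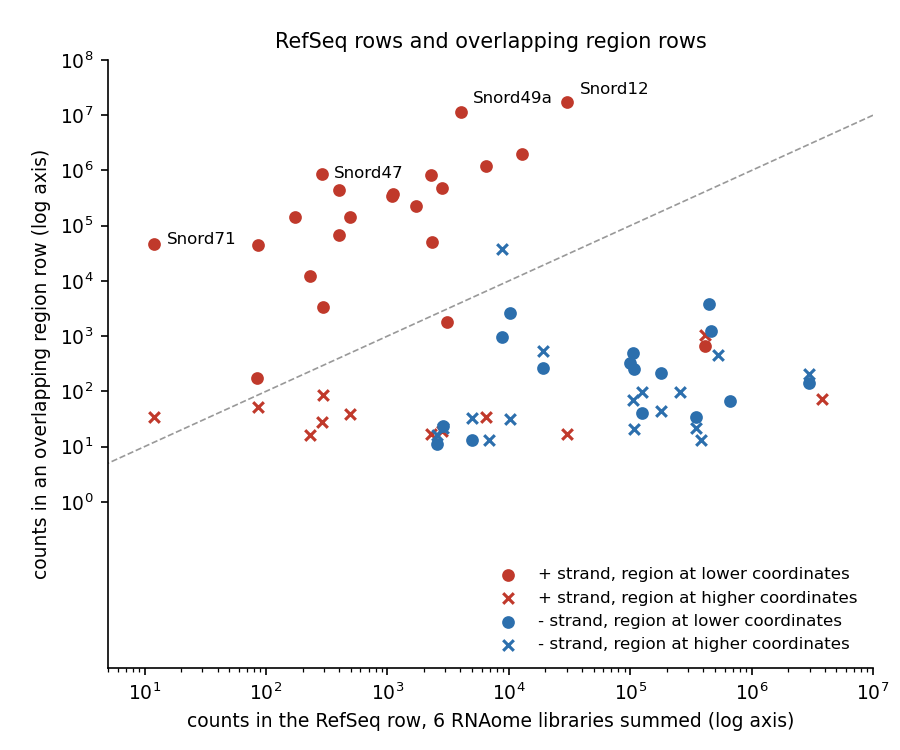
Counts of each member's RefSeq row (horizontal) and of an overlapping region row (vertical), summed over 6 RNAome libraries, both on log axes, with equality dashed. Red is the + strand and blue the − strand, circles are regions at lower and crosses at higher coordinates. The + strand circles lie above the line in 20 of 22 cases, up to 17413299 counts for Snord12.

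With the regions added, the 57 members and their neighbours, with the 12 unplaced members, made up 19.9% ± 1.26 of RNAome counts with cisplatin and 16.1% ± 4.07 in controls (exact permutation p = 0.30), and the groups overlapped. The cisplatin test on the joined rows again called 0 of 67 members in RNAome sequencing, where Snord88c stood at 0.94 ± 0.26 (edgeR adjusted p = 0.0753). Snord47 then stood at 0.43 ± 0.49 and Snord64 at -0.41 ± 0.40, both with the sign turned. In mRNA sequencing 2 of 23 members were lower, Snord47 and Snord83b (-0.83 ± 0.24, edgeR adjusted p = 0.0117). That is 8.7%, where 19.3% of all features in that fit were lower. The region row of Snord83b there, which holds 12 bases of Snord83b and the adjoining intron of Rpl3, had 15, 20 and 19 counts with cisplatin and 21, 41 and 30 in controls.

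The members were also listed in the small RNA tables, 62 in that of RNAome sequencing and 66 in small RNA sequencing, and 24 were listed in all 4 tables. In small RNA sequencing Snord12 was the highest per kb, with 50392, 42803 and 28410 counts with cisplatin and 67383, 41094 and 84946 in controls. The level across members in small RNA sequencing controls correlated with the RNAome RefSeq rows at a Spearman rho of 0.341 and with the joined rows at 0.651 (n = 56 placed members, as a description, with the same RNA samples behind both axes and the lengths shared). For the RNAome small RNA table the rise was smaller, from 0.364 with the RefSeq rows to 0.486 with the joined rows (n = 51 placed members).

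**Figure D4:**
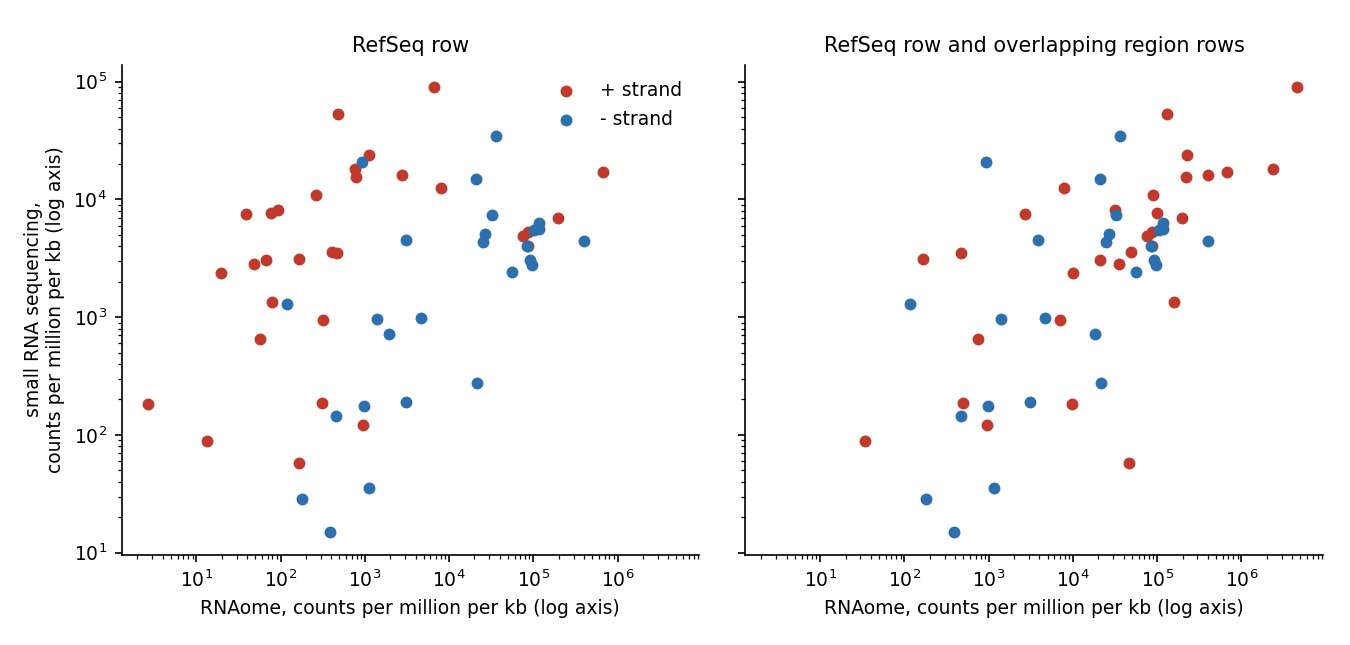
Control level of 56 placed members in small RNA sequencing (vertical) and in RNAome sequencing (horizontal), both in CPM per kb of RefSeq length on log axes. RefSeq rows are on the left (rho 0.341) and joined rows on the right (rho 0.651). On the left the + strand members (red) spread to lower RNAome levels than the − strand members (blue).

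Cisplatin called 0 of 53 tested members by edgeR in the RNAome small RNA table, where 0.219% of 6387 features were called (0.0157% higher and 0.204% lower), and DESeq2 called 0. At an unadjusted p under 0.05 edgeR had 2 and DESeq2 had 3. The groups did not overlap for 1 of 53 (1.89%), which was lower, against 14.8% of all tested features (5.87% higher and 8.92% lower). The median log2 fold change was 0.59 beside 0.11 over all tested features. Over 16 tested H/ACA snoRNAs it was 0.40, with 14 above 0, so a median above that of all features was not particular to the members. Cisplatin 8.5.3 (TMM factor 0.557) was the highest library for 46 of the 53 and cisplatin 8.3.3 (1.77) the lowest for 40. Without cisplatin 8.3.3, 3 members were called higher, Snord19 (1.71, edgeR adjusted p = 0.0353), Snord45b (1.75, 0.0322) and Snord45c (1.65, 0.0445), or 5.66% of 53. In that fit 1.97% of 6714 features were called higher and 2.23% lower. In small RNA sequencing it was 0 of 66 by edgeR, where 0.673% of 4311 features were called (0.58% higher and 0.0928% lower), and 0 by DESeq2, with 1 at an unadjusted p under 0.05 by each. There the median was -0.10 beside -0.04. The libraries of the groups did not overlap for 7 of 66 members, 1 higher and 6 lower, against 19.1% of all tested features (10.6% higher and 8.44% lower). The smallest p was that of Snord87, at 206, 193 and 221 CPM with cisplatin and 152, 158 and 169 CPM in controls, all 3 cisplatin libraries higher, with a log2 fold change of 0.38 ± 0.13 (edgeR adjusted p = 0.241). Snord88c stood at 0.08 ± 0.15 in small RNA sequencing (0.910) and Snord47 at -0.30 ± 0.18 (0.538).

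**Figure D5:**
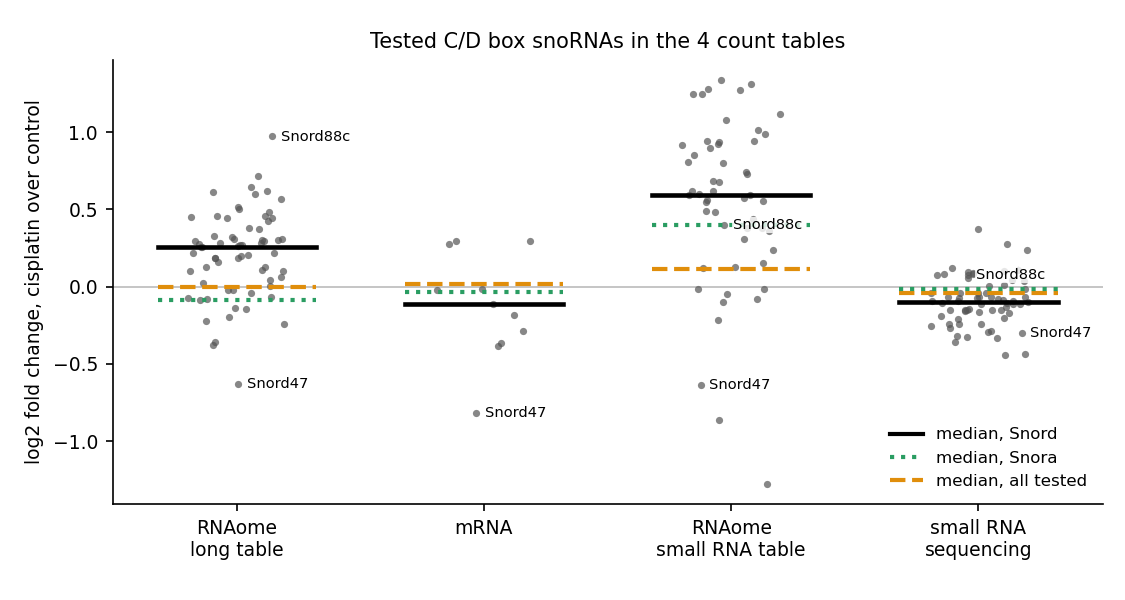
Log2 fold change, cisplatin over control, of every tested member in the 4 count tables, with the median of the members (solid), of H/ACA snoRNAs (dotted) and of all tested features (dashed). The members' median is 0.26 in the RNAome long RNA table, -0.11 in mRNA, 0.59 in the RNAome small RNA table and -0.10 in small RNA sequencing, and 0 members passed the test in any of the 4.

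Of 16 proteins of the C/D snoRNP and its assembly on the list used, 15 were tested in both assays. In mRNA sequencing 5 (33.3%) were lower and 0 higher, where 19.3% of all tested genes were lower (median -0.14 beside 0.01 over all genes). Nop58, a core protein, had 335, 326 and 300 CPM with cisplatin against 428, 388 and 402 CPM in controls, without overlap (log2 fold change -0.34 ± 0.05, edgeR adjusted p = 0.000176). Nop56, its partner and itself a snoRNA host, stood at -0.32 ± 0.05 (7.42e-05). The others lower were Nolc1 (-0.22), a nucleolar and Cajal body chaperone, Rpap3 (-0.25), of the assembly complex R2TP, and Coil (-0.20), the Cajal body protein coilin. Fbl stood at -0.08 ± 0.07 (edgeR adjusted p = 0.392). In RNAome sequencing 0 of the 15 were called (median -0.00; 0 at an unadjusted p under 0.05 by edgeR), with Nop56 at -0.30 ± 0.16 and Nop58 at -0.16 ± 0.16. Of 18 host genes, a list made after the data were seen, 16 were tested in both assays. In mRNA sequencing 4 (25%) were lower (Eif4a2, Nop56, Nop58 and Ncl) and 0 higher, beside the 19.3% of all tested genes, and in RNAome sequencing 0 were called.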

How the data were processed

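Values were deposited by the authors as raw read counts per RefSeq entry, region or small RNA, without normalization. Bowtie, TopHat, edgeR and build mm9 are named, without versions, per the submitters' processing notes, and no source used here states the counting rule. Main tests took the expression tables, and the abundance tables were an alternative. Symbols and lengths came from a RefSeq table of assembly GRCm38.p6, positions and sequences from GENCODE vM1 on NCBIM37. For each gene 1 RefSeq entry was kept.

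Counts were tested with edgeR 4.0.16 (R 4.3.3; quasi-likelihood, TMM, filterByExpr, two-sided, Benjamini-Hochberg over all tested features, threshold 0.05), and DESeq2 1.42.0 was an alternative. The fit was tested on simulated data with a common dispersion for all genes and changes only in genes with high counts. That leaves members with few or widely spread counts untested. Each treatment test used the 6 libraries of its table, and assays were compared in 12. The SE is the fold change over the root of F. Summed shares were tested by exact permutation.

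The members and lists were chosen with earlier results of these data known. Named members were those called, the 8 highest per kb in RNAome and 4 in mRNA controls, the largest changes without overlap, Snord22, Snord47 and the Snord116 family, and the listed proteins with the smallest p. Others (such as Snord1b, Snord49a, Snord64, Snord71 and Snord88a) were chosen after their values were seen, and the small RNA tests and region rows were added then. RNAome and mRNA libraries with the same sample code come from the same RNA. Their deviations from group means correlated at 0.0759 to 0.284. Pairs with different codes were not compared, so these correlations do not test the pairing.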

Additional observations from a re-analysis of the deposited data

Results flagged for a closer look

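Region rows are outside the RefSeq entries used to define the members, and some overlap the end of a snoRNA by a few bases. For 21 placed members the overlapping region rows held more RNAome counts than the member's own row. With these rows added, the members and regions made up 16.1% of RNAome expression-table counts as a mean over the control libraries, against 7.61% for the RefSeq rows alone, and 19.9% with cisplatin, against 11.0%. The rows at issue were almost all on the + strand at lower coordinates (20 of 22, against 0 of 16 on the − strand). With these rows added, cisplatin calls were 0 of 67 members in RNAome sequencing and 2 of 23, both lower, in mRNA sequencing. Which bases of a region gave its counts cannot be read from these files.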

How the results depend on the processing

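The count of members higher in RNAome than in mRNA sequencing was 26 under every alternative run, the sample code as a replicate block included. For the 15 below the mRNA count filter, which are in the fit because they are high in RNAome libraries, this is no support. The interaction count was 0 under every alternative run, the block included, and for the same 15 it rests on few mRNA counts. In RNAome sequencing 1 member was higher (Snord88c) with no count filter, with the abundance table and with the code prefix as a replicate block, and 0 to 1 when a library was left out (1 without cisplatin 8.3.3 or control 8.5.16). The prefix's meaning is not known, and deviations of its 2 pairs correlated at -0.12 and 0.10 in RNAome and 0.12 and 0.17 in mRNA sequencing. In mRNA sequencing 1 member was lower (Snord47) with no count filter, 0 to 1 with a library left out (1 without control 8.5.16) and 2 of 23 with region rows added, where 19.3% of all features were lower. Among the small RNAs of RNAome libraries 0 to 3 were higher with a library left out (3 of 53 without cisplatin 8.3.3, where 1.97% of all features were higher and 2.23% lower). The summed mRNA share difference ran from -9.00e-05 to 2.54e-05 percentage points with a library left out, turning sign without cisplatin 8.5.3.

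Log2 fold changes of named members that were not called turned sign as follows, and the cause was not tested. With a library left out, RNAome values ran from -0.44 to 0.059 for Snord12, -0.22 to 0.56 for Snord19 (-0.0077 without control 8.6.16), -0.10 to 0.54 for Snord2, -0.33 to 0.18 for Snord22 (0.044 without cisplatin 8.3.3), -0.17 to 0.56 for Snord43 (-0.038 without control 8.6.16), -0.39 to 0.37 for Snord45c (-0.13 without control 8.6.16), -0.17 to 0.54 for Snord4a and -0.60 to 0.27 for Snord96a (-0.14 without control 8.6.16). In mRNA they ran from -0.026 to 0.47 for Snord2, -0.15 to 0.040 for Snord22 (0.034 without control 8.6.16, 0.039 without control 8.5.16 or cisplatin 8.4.3) and -0.24 to 0.23 for Snord96a (0.095 without cisplatin 8.3.3). With library totals, RNAome values were -0.093 for Snord45c and -0.27 for Snord96a, and mRNA values 0.079 for Snord22 and 0.074 for Snord96a. Snord96a in RNAome was -0.012 with DESeq2, -0.0038 with RLE scaling and -0.12 with the prefix block. With region rows added, RNAome values were 0.43 for Snord47 and -0.41 for Snord64, and the mRNA value of Snord2 was -0.22. Counts of 1 to 75 per library limit the mRNA tests of members.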

Other observations

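Region rows also hold C/D snoRNA entries that are not members. The row with the most counts in the RNAome table, chr2:166888798-166889135 in 1500012F01Rik on NCBIM37, covers an entry of the SNORD12 family. Before scaling, it had 4078267, 5171144 and 4634012 counts in the cisplatin libraries, against 1318938, 3250833 and 1880483 in the control libraries. Library totals differ, and as a share of them it took 5.73%, 5.48% and 5.22% with cisplatin and 2.91%, 4.73% and 4.33% in controls. Another, in Syncrip and Snhg5, covers SNORD50 family entries and the genes around them. Before scaling, that row had 2998777, 3361734 and 4493303 counts with cisplatin, against 781762, 2239074 and 1565065 in controls. As a share of library totals the groups overlapped, at 4.21%, 3.56% and 5.07% with cisplatin and 1.73%, 3.26% and 3.61% in controls. Neither row was tested on its own.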
